A study of Mus musculus with 2 samples.

Results

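Spindle cells are rare cells at the edges of the stria vascularis (SV), the epithelium on the lateral wall of the cochlea that makes the endocochlear potential. In the single-nucleus RNA-Seq data described here, 88 of 3486 nuclei (2.52%, exact 95% binomial interval 2.03 to 3.10) were taken as spindle cell nuclei. A nucleus was a member when unique molecular identifiers (UMIs, one per captured RNA molecule) of *Anxa1*, *Il1rapl2* and *Kcnq5* summed to at least 5, came from at least 2 of these 3 genes, and exceeded the summed UMIs of the root cell genes *Ceacam16*, *Epyc*, *Lgr5* and *Rspo2*. The members were thus chosen by measured values of these 7 genes in these same nuclei. Every level of these genes in the members, and every gene that goes with them, is a description here and carries no test.

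Both libraries came from the SV of CBA/J mice at postnatal day 30, each from pooled animals, with no genetic or drug treatment. In MethFix, nuclei were fixed in methanol after isolation, and in RNAlater the tissue was soaked in the RNAlater reagent before nuclei were isolated. MethFix held 4748 barcodes with 21027671 UMIs in all (median 3469 per barcode) and RNAlater held 3868 barcodes with 17681824 UMIs (median 3998.5). There was 1 library per preservation method, so nothing could be tested across animals. In addition, the matrices had 3323 barcodes in common, which is 70.0% of those in MethFix and 85.9% of those in RNAlater, so the 2 libraries were counted as 1 sample. Each of the 5293 different barcodes was used once, with its RNAlater counts where it had them, and 3486 passed the limits of at least 200 genes, at most 8000 UMIs and at most 10% mitochondrial UMIs. This left 2 sets of nuclei with no barcode in common. The shared set (barcodes in both matrices) had 49 members among 2293 nuclei (2.14%, 1.58 to 2.82), and the MethFix-only set had 39 among 1157 (3.37%, 2.41 to 4.58). None of the 36 RNAlater-only nuclei was a member (exact interval 0 to 9.74%), but these held a median of 571 and at most 910 UMIs, while members held at least 752, so their 0 cannot be told apart from low depth. Of the 49 shared members, 41 also met the rule in their MethFix counts.

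Spindle cells and the neighboring root cells line the border between the SV and the spiral prominence. Both are known for pendrin, the chloride and bicarbonate exchanger encoded by *Slc26a4*, whose loss causes hearing loss with enlargement of the vestibular aqueduct. Marginal cells secrete potassium into endolymph, intermediate cells are pigment cells whose potassium channel *Kcnj10* sets up the endocochlear potential, and basal cells seal the SV from the spiral ligament. Spindle cells have few markers of their own, and their role in ion transport is far less settled than that of these 3 cell types. Nuclei of the surface epithelium of the spiral prominence, which lies next to the spindle cells, cannot be told apart from them by this rule.

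Among the genes that chose the members, *Anxa1* (annexin A1, a calcium-dependent membrane-binding protein) was seen in 80 of 88 nuclei with 641 UMIs. *Kcnq5*, a voltage-gated potassium channel of the Kv7 family, was seen in 79 nuclei with 879 UMIs. *Il1rapl2*, a synaptic adhesion protein of the interleukin-1 receptor family, was seen in 52 nuclei with 546 UMIs. All 3 genes were present in 35 members, and *Anxa1* with *Kcnq5* alone made up another 36. The sum of the 3 genes ran from 5 to 89 UMIs with a median of 19. Members had a median of 3317 UMIs (4133 in the shared set and 2356 in the MethFix-only set), against 3925.5 in the other 3398 nuclei.

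The label was then checked against markers of the other cell types in the tissue. The 4 root markers took part in the rule, so their 10 UMIs in the members (*Epyc* and *Lgr5* at 0) are no check. The members held 0 UMIs of 7 macrophage markers. They held 2 endothelial, 1 neuronal, 5 pericyte and 7 red blood cell marker UMIs, and 27 of 6 fibrocyte markers, of which *Otos* gave 10 and *A2m* 0. In CPM the endothelial, neuronal, pericyte and fibrocyte lists stood at 6.35, 3.17, 15.9 and 85.7, against 46.9, 69.7, 33.5 and 232 in all other nuclei. The red blood cell list stood at 22.2 CPM (8.93 to 45.8) against 15.2 CPM. They held 171 UMIs of 6 Schwann markers, or 543 CPM against 552 CPM in all other nuclei, of which *Sox10* gave 113 and *Mag* 0. Of the major SV cell types they held 140 UMIs of 5 basal markers, 277 of 5 marginal markers (180 from *Kcnq1*) and 1784 of 5 intermediate markers. Of the last, 1276 came from *Dct*, dopachrome tautomerase of the melanin pathway. The basal, marginal and intermediate lists stood at 444, 879 and 5660 CPM, against 935, 2356 and 8864 CPM in all other nuclei. *Cldn11* gave 87 of the basal marker UMIs and stood at 276 CPM, near its 292 CPM in all other nuclei.

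Intermediate marker UMIs were seen in 66 of the 88 members, but 1667 of the 1784 lay in 17 nuclei. In these 17 nuclei the markers of another cell type had more UMIs than the rule genes did, and these are called mixed below. A nucleus can exceed its rule genes in more than 1 list, and this was the intermediate list in 14 nuclei, the marginal list in 3 (1 of which was also among the 14), the bone list in 1 and the Schwann list in 1. The nucleus with the bone markers held 286 of the 298 bone marker UMIs. *Dct* stood at 13172 CPM (counts scaled to 1000000 UMIs) in the 17 mixed members, close to its 16895 CPM in intermediate nuclei. In the other 71 members it stood at 391 CPM, against 339 CPM in marginal and 573 CPM in root nuclei. The mixed members were also larger, with a median of 5069 UMIs against 2968, and fell into both sets (11 shared and 6 MethFix-only). No doublet caller was run, and whether the mixed members are doublets was not tested. The separation was chosen after their values had been seen, so values are given for all 88 nuclei and, for part of the genes, also for the 71 without mixed members.

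**Figure D1:**
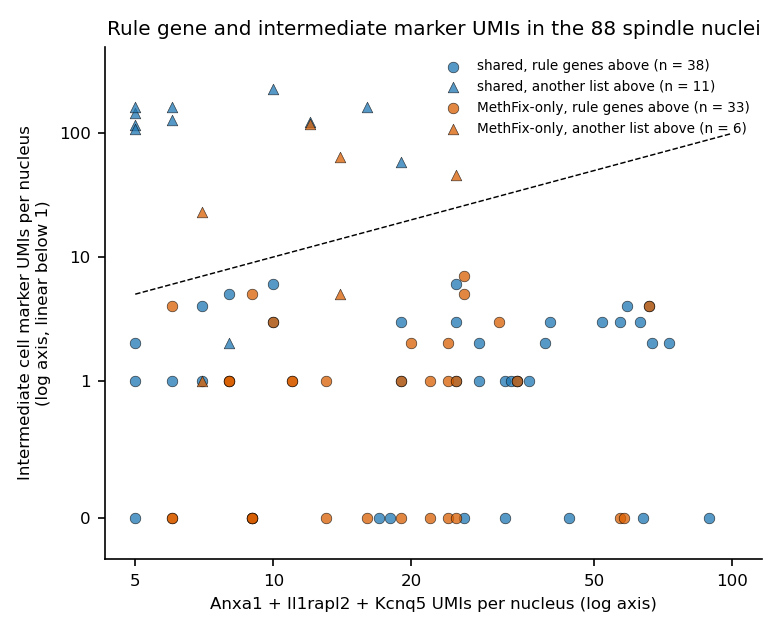
Each point is 1 of the 88 spindle nuclei, with its summed *Anxa1*, *Il1rapl2* and *Kcnq5* UMIs on the horizontal log axis and its summed UMIs of 5 intermediate cell markers on the vertical axis (log above 1), colored by set. Triangles mark the 17 mixed members, most of which lie above the dashed line of equal counts with a median of 118 intermediate marker UMIs, while the other 71 nuclei (circles) hold at most 7.

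Values at the edge of the rule are given as a description. Of the nuclei just inside it, the markers of another cell type exceeded the rule genes in 4 of 7 with a sum of 5 and in 2 of 6 with a sum of 6. The 13 members just inside the threshold, with sums of 5 or 6, had *Dct* at 14300 CPM and *Dpp10* at 334 CPM. The 16 nuclei just outside it, with sums of 3 or 4, had 12305 and 426 CPM. In the 75 members with 7 or more the values were 2477 and 1636 CPM. *Slc26a4* stood at 1027 CPM just inside, 371 CPM just outside and 875 CPM in the members with 7 or more. The value just inside rested largely on 1 nucleus, which held 26 *Slc26a4* UMIs. The limit of 8000 UMIs mattered as well, since 40 larger barcodes met the rest of the rule and in 35 of them the markers of another cell type outnumbered the rule genes.

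*Dpp10*, *Ptprz1* and *Hpse2* were proposed as spindle markers but took no part in choosing the nuclei. *Dpp10*, an inactive dipeptidyl peptidase that serves as an auxiliary subunit of Kv4 potassium channels (GRCm38 chr1:123321471-124045559, minus strand), reached 1463 CPM (exact Poisson 95% interval 1332 to 1603). It stood at 1636 CPM in the shared members and 1157 CPM in the MethFix-only members. In all other nuclei together it stood at 119 CPM, a log2 ratio of 3.63 (3.47 to 3.78). Marginal nuclei came next with 248 CPM, intermediate nuclei had 33.3 and basal nuclei 10.8, and root nuclei held a single *Dpp10* UMI. All of these intervals cover counting error only, and none covers differences between animals.

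*Ptprz1* encodes a receptor tyrosine phosphatase that binds pleiotrophin and contactins (chr6:22875502-23052916, plus strand). It stood at 1456 CPM in the members (1326 to 1596) and 64.0 CPM in the other nuclei, a log2 ratio of 4.51 (4.34 to 4.67). It was not particular to them, since nuclei of Reissner's membrane had 1197 CPM. *Hpse2*, a heparanase homolog without the enzyme's cleaving activity, had 374 CPM in the members and 6.29 CPM elsewhere, a log2 ratio of 5.89 (5.48 to 6.31). Only 10 of the 88 nuclei carried any *Hpse2* UMI, so this level belonged to a few nuclei.

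Because nuclei differ in depth, detection was also compared after thinning each nucleus to 1000 UMIs, which left out 2 members. *Dpp10* was then seen in 53.5% of members (42.4 to 64.3), in 17.3% of marginal nuclei and in 0 of 57 root nuclei. *Ptprz1* was seen in 54.7% of members and 63.9% of Reissner nuclei, against 5.26% of root nuclei. *Slc26a4* was seen in 50.0% of members (39.0 to 61.0) and 63.2% of root nuclei (49.3 to 75.6), intervals that overlap. Its shares in marginal and intermediate nuclei, cells that should lack it, were 0.599% and 0.577%. Before thinning, *Dpp10*, *Ptprz1* and *Slc26a4* were seen in 72.7%, 73.9% and 67.0% of members.

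**Figure D2:**
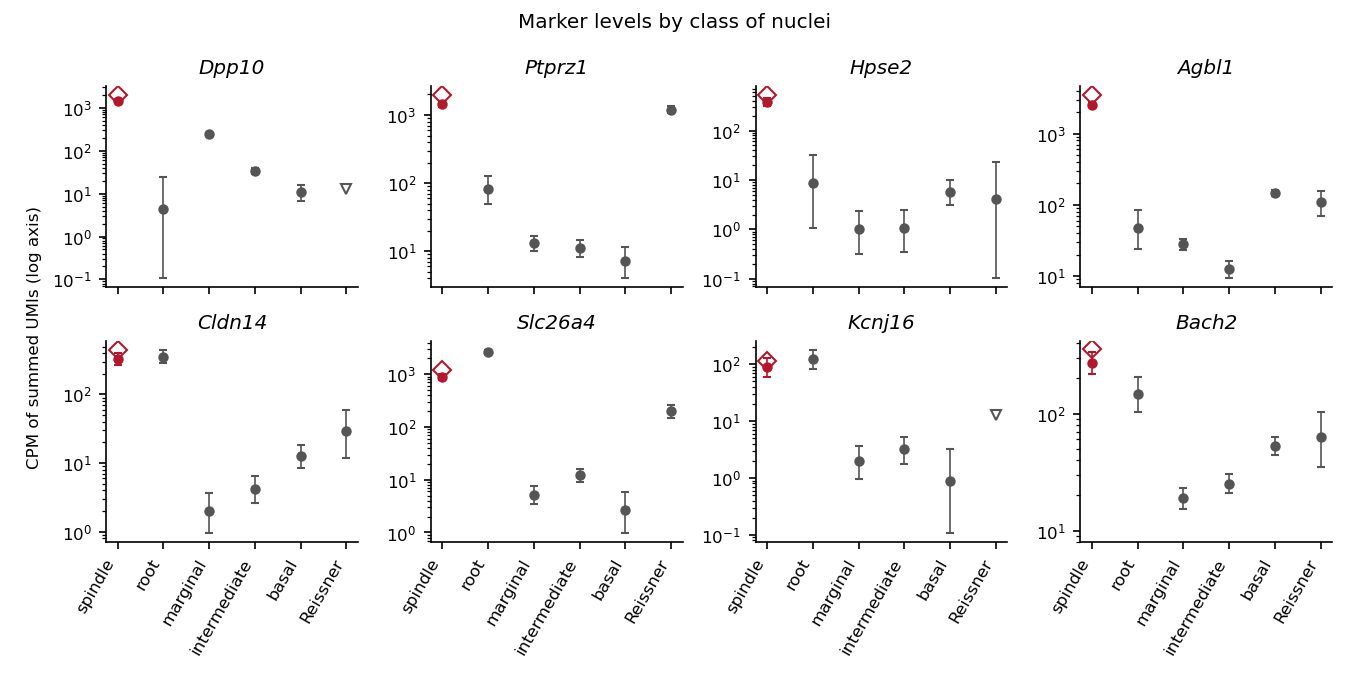
CPM of summed UMIs (log axis) of 8 genes in spindle, root, marginal, intermediate, basal and Reissner nuclei, as points with exact Poisson 95% intervals. Open diamonds give the spindle level without the 17 mixed members and open triangles mark classes with 0 UMIs, drawn at the level of 3 UMIs. *Dpp10*, *Hpse2* and *Agbl1* are highest in spindle nuclei, *Ptprz1* is shared with Reissner nuclei, and *Cldn14*, *Slc26a4* and *Kcnj16* are shared with root nuclei.

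Across the transcriptome, a gene was compared where the mean of its CPM in both groups was at least 50. It was called when the log2 ratio reached 2 over all nuclei and at least 1, in the same direction, in both the shared and the MethFix-only sets. Against all other nuclei 3964 genes were compared, of which 108 (2.72%) were called higher in spindle nuclei and 75 (1.89%) lower. The median log2 ratio of all compared genes was 0.01. All 108 of the higher genes and 64 of the 75 lower genes were called again without the mixed members, when the counts rose to 176 and 202. The rule used nuclei of this same contrast, so these counts describe the members and test nothing.

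The gene with the largest ratio was *Gm43154*, a long intergenic noncoding RNA of unknown function on chromosome 6. It stood at 882 CPM (781 to 992) in spindle nuclei and 10.5 CPM in the others, a log2 ratio of 6.39 (6.09 to 6.69). It was seen in 61 of the 88 nuclei, so it was spread more widely over the members than *Hpse2* was. *Wfdc18*, a small secreted protein with a whey acidic protein domain, followed *Hpse2* at 355 against 7.33 CPM. *Ptk2b*, a calcium-activated tyrosine kinase of the focal adhesion kinase family, had 175 against 3.63 CPM.

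*Agbl1*, a carboxypeptidase that removes glutamate chains from tubulin, was the most abundant of the first 20 genes. It stood at 2557 CPM (2384 to 2740) against 70.3 CPM, a log2 ratio of 5.19 (5.05 to 5.32), with 2695 CPM in the shared and 2315 CPM in the MethFix-only members. Nuclei that met no class's marker rule came next with 352 CPM (318 to 389), and basal nuclei had 147 CPM. The adhesion genes *Cntn1* (contactin 1) and *Clstn2* (calsyntenin 2) had log2 ratios of 4.52 and 4.60. *Cntn1* stood at 593 CPM, against 1.00 CPM in marginal and 60.7 CPM in root nuclei. Nuclei that met no class's marker rule came next, with 247 CPM (218 to 278) of *Cntn1*.

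Among the rest of the first 20 were *Plat*, tissue plasminogen activator, at 152 CPM and *Spns2*, a sphingosine-1-phosphate transporter, at 121 CPM. Their log2 ratios were 4.01 and 4.07. In Reissner nuclei *Spns2* stood at 104 CPM (67.5 to 154), close to its level in the members. *Thsd4*, a matrix protein of the ADAMTS-like family, had 815 against 46.4 CPM. *Apobec1*, a cytidine deaminase that edits RNA, had 194 against 12.3 CPM and 0 UMIs in root nuclei. The remaining genes of this group were *Tmprss3*, *Cldn14*, *Arl4c*, *Osbpl3*, *Man1a*, *Jazf1*, *Kif19a* and *Arrdc4*, with log2 ratios from 3.87 to 4.62.

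**Figure D3:**
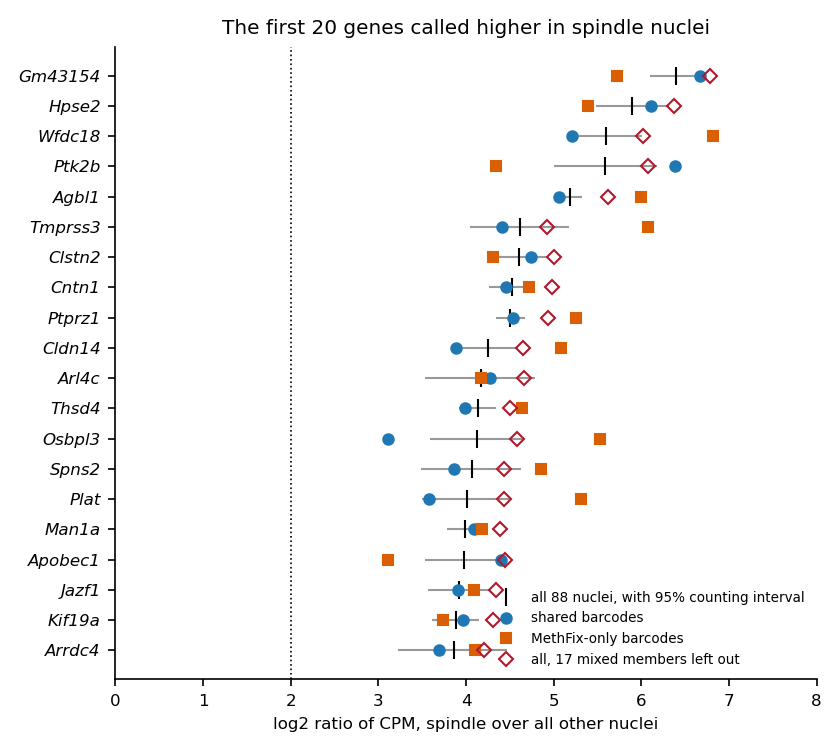
Log2 ratio of CPM, spindle over all other nuclei, for the 20 genes called higher with the largest ratios. Black ticks with gray bars give all 88 nuclei with the 95% counting interval, blue points the shared set, orange squares the MethFix-only set and open diamonds all nuclei without the 17 mixed members. Every gene lies above the dotted line at 2 in both sets, from *Gm43154* at 6.39 to *Arrdc4* at 3.87.

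Several genes of ion transport were among those called higher. *Slc26a4* (chr12:31519827-31559969, minus strand) stood at 895 CPM (793 to 1006) against 69.5 CPM, a log2 ratio of 3.69 (3.49 to 3.88). The ratio was 3.67 in the shared and 4.82 in the MethFix-only set. The level in the members went the other way, with 1059 CPM in the shared and 605 CPM in the MethFix-only set. The nuclei compared with also differed, with 55 root nuclei in the shared set and 3 in the MethFix-only set. What part this had in the ratios was not tested. *Slc9a4*, a sodium-proton exchanger of basolateral membranes, had 143 against 11.6 CPM, and it was as high in Reissner nuclei (142 CPM). Together these were 2 of the 10 compared genes of acid-base and anion transport called higher (2.72% of all genes). The carbonic anhydrase *Car2* was called lower (1.89% of all genes), at 28.6 CPM, and 17.8 CPM without the mixed members, against 117 CPM. The median log2 ratio of that list was -0.39, so the list as a whole did not stand above the other genes.

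*Kcnk5*, a two-pore potassium channel, was called higher at 143 against 11.8 CPM, and it was as high in Reissner (171 CPM) and root (156 CPM) nuclei. *Kcnj16*, an inwardly rectifying potassium channel subunit, stood at 88.8 CPM (59.0 to 128) against 5.77 CPM. Its mean over both groups fell under the limit for comparison, so its log2 ratio of 3.94 (3.27 to 4.58) is given without a call. *Kcnma1*, the large-conductance calcium-activated potassium channel, was called lower with 73.0 CPM, and 31.1 CPM without the mixed members, against 659 CPM.

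Other members of the potassium channel families of the rule and marker genes were then counted. Of the Kv7 family, *Kcnq3* had 2 UMIs. *Kcnq1* and *Kcne1*, which form the potassium channel of marginal cells, had 571 and 95.2 CPM against 1286 and 300.2 CPM in the other nuclei. *Kcnq1* was not called, and stood at 622 CPM without the mixed members and 234 CPM in root nuclei. *Kcne2*, *Kcne3*, *Kcne4* and *Kcne5* had 0 UMIs in the members, where a count of 3 would be 9.52 CPM, and also 0 in all other nuclei. The Kv4 pore genes *Kcnd1*, *Kcnd2* and *Kcnd3*, whose channels DPP10 is known to modify, held 0, 1 and 0 UMIs. Among the other Kv4 partners *Kcnip3* had 16 UMIs, *Kcnip4* 6 and *Dpp6* 2.

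Genes for the sodium-potassium pump and for NKCC1, the sodium, potassium and chloride cotransporter of marginal cells, made up a further list. With the mixed members included, none of its 6 compared genes was called, where 2.72% of all genes were called higher and 1.89% lower. The median log2 ratio of the list was -1.33, and -2.18 without the mixed members. *Slc12a2*, which encodes NKCC1, stood at 1085 CPM (973 to 1206), and at 449 CPM without the mixed members, against 4292 CPM in the other nuclei. Of 7 compared genes of voltage-gated calcium channels, 3 were called lower and none higher, against 1.89% of all genes called lower. *Cacnb2* had 650 CPM, and 289 CPM without the mixed members, against 3655 CPM, *Cacna1d* 187 against 840 CPM and *Cacna1e* 22.2 against 169 CPM. The first 2 of these were highest in marginal nuclei and *Cacna1e* in basal nuclei. *Cacna2d1*, an auxiliary subunit of these channels, stood at 1647 against 610 CPM and was not called.

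Further annexins accompanied the rule gene *Anxa1*. *Anxa5* stood at 711 CPM (621 to 810) against 59.0 CPM, a log2 ratio of 3.59 (3.37 to 3.81), in 68 of the 88 nuclei. *Anxa2* stood at 701 CPM (612 to 800) against 80.6 CPM, a log2 ratio of 3.12 (2.91 to 3.33), and at the same 701 CPM in both sets. These were 2 of 8 compared annexin and S100 genes, against 2.72% of all genes called higher, and none was called lower. *S100a10*, the binding partner of annexin A2, stood at 57.1 against 20.1 CPM and was too low for a comparison. The formyl peptide receptor genes, receptors for annexin A1 in leukocytes, had 0 UMIs in the members for all 5 genes listed. This was not particular to the members, since in all other nuclei *Fpr3* had 5 UMIs and the rest 0.

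The starts of these genes can be set beside each other. The 250 bases before the RefSeq start of 4 genes are shown, 3 because the letters of the TATA box lie close to the start and *Dpp10* because it has none. They lie in GRCm38.p6 at chr19:20390672-20390921 (minus strand, *Anxa1*), chr9:69453433-69453682 (plus strand, *Anxa2*), chr12:31559985-31560234 (minus strand, *Slc26a4*) and chr1:124045560-124045809 (minus strand, *Dpp10*). Capitals mark TATAAA, the core of the box. They also mark the AP-1 site, TGANTCA. Each was searched on both strands, and each sequence reads 5′ to 3′ toward the gene.
Anxa1: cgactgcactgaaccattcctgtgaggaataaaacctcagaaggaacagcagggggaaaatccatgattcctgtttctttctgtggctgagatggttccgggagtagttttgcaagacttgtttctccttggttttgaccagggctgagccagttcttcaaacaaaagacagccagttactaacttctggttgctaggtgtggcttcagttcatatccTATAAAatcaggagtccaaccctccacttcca
Anxa2: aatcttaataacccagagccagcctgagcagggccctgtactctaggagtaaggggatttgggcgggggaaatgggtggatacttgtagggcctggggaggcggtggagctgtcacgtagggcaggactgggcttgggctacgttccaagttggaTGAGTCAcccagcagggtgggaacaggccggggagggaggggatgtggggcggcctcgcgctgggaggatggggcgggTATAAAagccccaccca
Slc26a4: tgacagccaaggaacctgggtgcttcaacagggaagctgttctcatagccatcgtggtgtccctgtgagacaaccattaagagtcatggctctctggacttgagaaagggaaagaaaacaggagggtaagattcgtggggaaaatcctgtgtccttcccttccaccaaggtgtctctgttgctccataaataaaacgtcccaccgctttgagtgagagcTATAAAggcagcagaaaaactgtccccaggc
Dpp10: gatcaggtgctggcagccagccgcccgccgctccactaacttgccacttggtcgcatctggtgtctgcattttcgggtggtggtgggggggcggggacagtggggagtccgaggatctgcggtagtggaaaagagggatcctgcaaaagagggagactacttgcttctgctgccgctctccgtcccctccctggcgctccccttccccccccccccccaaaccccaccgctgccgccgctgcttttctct

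The TATAAA began 32 bases before the start of *Anxa1*, 31 before that of *Slc26a4* and 17 before that of *Anxa2*, which also had a TGANTCA at 95 bases. The sequence before *Dpp10* was 65.2% G and C, against 46% before *Anxa1*. TATAAA occurred in 12.4% of all 32851 promoters of this length in the table. Counted by gene, with any promoter of a gene, it occurred in 14.3% of all 27025 genes, in 8.35% of the 3055 genes compared, in 14 of the 78 called higher (17.9%) and in 16.1% of those called lower. TGANTCA occurred in 6.75% of all promoters, and by gene in 7.82% of all, 5.53% of those compared and 3 of the 78. A match describes letters in this window and does not show that a factor binds there.

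Genes of epithelial structure are set against the 2.72% of all genes called higher. Of 10 compared claudin and tight junction genes only *Cldn14* was called, at 333 CPM (272 to 403) against 17.5 CPM, although the list's median log2 ratio was 0.80. Claudin 14 seals paracellular spaces and is a deafness gene. The keratin *Krt18* (88.8 against 14.4 CPM) and the desmosomal plakophilin *Pkp2* (152 against 24.1 CPM) were 2 of 8 compared keratin and adhesion genes. *Pkp2* was not particular to the members, with 174 CPM in root and 100 CPM in Reissner nuclei. *Ezr*, which links actin to microvillar membranes, was 1 of 8 compared microvillar and apical genes, again beside 2.72% of all genes, at 175 against 42.5 CPM. *Cdh1*, E-cadherin, had 492 against 392 CPM and was not called.

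*Ptprz1* and *Cntn1* made up 2 of 5 compared genes of the PTPRZ1 and contactin list, of which *Ptn* (pleiotrophin, 69.8 against 301 CPM) and *Cntn4* (12.7 against 128 CPM) were called lower, where 2.72% of all genes were called higher and 1.89% lower. *Ptn* was highest in basal nuclei, at 856 CPM. *Hpse2* was the single call among 11 compared genes that make or cut heparan sulfate (2.72% of all genes were called higher). Its catalytically active relative *Hpse* stood at 365 CPM in all members and 35.6 CPM without the mixed ones, against 578 CPM in the other nuclei. *Ext1*, a heparan sulfate polymerase, stood at 876 against 362 CPM and was not called.

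Of 26 compared transcription factors of otic and strial cells, *Bach2* and *Eya4* were called higher and 2 were called lower, against 2.72% and 1.89% of all genes compared. *Bach2*, a repressor best known from lymphocytes, had 273 CPM (218 to 337) against 37.5 CPM. *Eya4*, a coactivator mutated in a dominant form of deafness, had 1770 CPM (1627 to 1924) against 356 CPM, and was also high in root (1531 CPM) and Reissner (1356 CPM) nuclei. *Esrrb* (184 against 1174 CPM) and *Esrrg* (66.6 against 430 CPM), orphan nuclear receptors highest in marginal nuclei, were called lower. Without the mixed members they stood at 84.5 and 31.1 CPM. In the shared members *Esrrb* stood at 14.9 CPM and in the MethFix-only members at 482 CPM, so the level depended on the set. *Kcnq1*, the most abundant of the marginal markers, moved the same way, with 443 CPM in the shared and 798 CPM in the MethFix-only members. What part marginal cell RNA had in this was not tested.

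Among 18 compared genes linked to deafness through the SV or lateral wall, *Eya4*, *Slc26a4*, *Cldn14* and *Tmprss3* were called higher and *Esrrb* lower, 4 and 1 of 18 where 2.72% and 1.89% of all genes were called. The median log2 ratio of the list was -0.32, against 0.01 over all genes. The serine protease gene *Tmprss3* stood at 136 CPM (98.7 to 184) against 5.55 CPM. Outside these lists, *Camk2d*, a calcium and calmodulin-dependent kinase, was among the most abundant transcripts of the 71 members without mixed ones, at 4961 against 476 CPM in the other nuclei.

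Among the first 10 genes called lower were *Gm17276*, *Gm44593*, *Pdzrn4*, *Cntnap3*, *Mllt3*, *Rgs6*, *Pvt1*, *Rasgef1c* and *Cntn4*. Each of these had between 1 and 10 UMIs in the 88 members. They were high in different classes, such as *Mllt3* in basal nuclei (1325 CPM), *Pdzrn4* in Reissner nuclei (2019 CPM) and *Rasgef1c* in marginal nuclei (556 CPM). *Pdzrn4*, a ubiquitin ligase with PDZ domains, had 2 UMIs in the members and a log2 ratio of -4.35 (-7.39 to -2.49).

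The members were far from uniform. Among the 71 without mixed members, *Cldn14* came close to an even spread, with 99 UMIs in 49 nuclei, at most 6 in any of them, and a variance 1.29 times that of counting. *Dpp10* was seen in 59 of these nuclei with a median of 4 UMIs and a maximum of 38. *Ptprz1* was seen in 60, with a median of 4 and a maximum of 42. *Slc26a4* was seen in 55, with a median of 3 and a maximum of 26.

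Other genes were spread less evenly. *Hpse2* had 117 UMIs in 9 nuclei, and 72.6% of them came from 3 nuclei. *Agbl1* had 779 UMIs in 43 nuclei, up to 82 in one, and a variance 32.4 times that of counting. *Wfdc18* had 107 UMIs in 19 nuclei, and a single nucleus held 42.1% of them. *Dkk2*, a secreted WNT inhibitor, had 225 UMIs in 31 nuclei, and 3 nuclei held 52.0% of them.

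**Figure D4:**
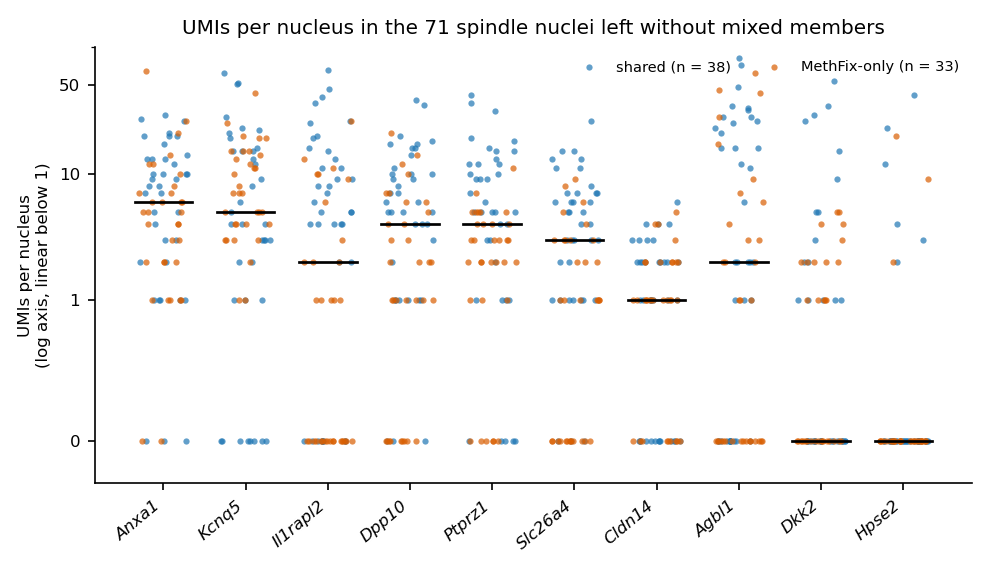
UMIs per nucleus (log axis above 1) of 10 genes in the 71 spindle nuclei left without mixed members, blue for the shared and orange for the MethFix-only set, with the median as a black bar. *Dpp10*, *Ptprz1* and *Slc26a4* are present in most nuclei with medians of 3 or 4, while *Agbl1* runs from 0 to 82 and *Hpse2* is absent from all but 9.

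Pairs of these uneven genes were then counted in the same 71 nuclei. *Agbl1* and *Dkk2* were seen together in 12 nuclei, *Agbl1* alone in 31, *Dkk2* alone in 19 and neither in 9. *Wfdc18* and the rule gene *Il1rapl2* were seen together in 3 nuclei, *Wfdc18* alone in 16, *Il1rapl2* alone in 42 and neither in 10. By set, the 4 counts in the same order were 1, 4, 28 and 5 of 38 shared nuclei and 2, 12, 14 and 5 of 33 MethFix-only nuclei, so both genes also varied with the set. A nucleus without *Il1rapl2* needed both *Anxa1* and *Kcnq5* to be a member, and what part the rule had in these counts was not tested.

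*Slc26a4* is given for members with and without *Il1rapl2*, a split on a rule gene that was chosen after these values had been seen and that carries no test. In the 45 nuclei with *Il1rapl2* it stood at 1593 CPM (1391 to 1816) and in the 26 without at 581 CPM (430 to 768). Within the shared set the levels were 1726 and 617 CPM, and within the MethFix-only set 1114 (772 to 1557) and 552 CPM (361 to 809), the last 2 with intervals that overlap. *Dkk2* had 718 CPM in those with *Il1rapl2* and 1470 CPM in those without, over all nuclei. Within the shared set this was 818 against 2655 CPM, of which the latter rested on 99 UMIs in 4 of 9 nuclei. Within the MethFix-only set it was 360 against 531 CPM, with intervals that overlap. Of the 45 nuclei with *Il1rapl2* 29 were shared, and of the 26 without 9 were. Median depth with and without *Il1rapl2* was 3649 and 3081 UMIs in the shared set and 1723 and 2372 UMIs in the MethFix-only set, and its part in these values was not tested.

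Root nuclei were the natural comparison, as they share the border of the SV with spindle cells. There were 58 of them (55 in the shared set and 3 in the MethFix-only set), so the members of each set were compared with all 58. The preparation of the 2 groups therefore differed, and for the MethFix-only members it cannot be told apart from cell type. Of 3846 genes compared, 165 (4.29%) were called higher in spindle nuclei and 178 (4.63%) lower, with a median log2 ratio of 0.00 over all. Without the mixed members 122 of the 165 and 159 of the 178 were called again.

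Genes shared by both cell types came first. *Cldn14* stood at 333 CPM in spindle and 356 CPM (283 to 442) in root nuclei, a log2 ratio of -0.09 (-0.53 to 0.34). *Kcnj16* stood at 88.8 and 121 CPM, a log2 ratio of -0.45 (-1.26 to 0.36). *Tmprss3* had a log2 ratio of -0.38 (-1.03 to 0.27). *Slc26a4* was lower in spindle nuclei, 895 against 2642 CPM, by a log2 ratio of -1.56 (-1.77 to -1.36), or -1.12 without the mixed members, and did not reach the size needed for a call. *Bach2* was higher, 273 against 147 CPM, with a log2 ratio of 0.89 (0.30 to 1.51).

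The widest gap in favor of spindle nuclei was that of *Dpp10*, with 461 UMIs against 1, a log2 ratio of 8.40 (5.91 to 13.70). *Dkk2* followed with 229 UMIs against 1, a log2 ratio of 7.39 (4.90 to 12.70), though Reissner nuclei had 5911 CPM, far above the 727 CPM of spindle nuclei (945 CPM in the shared and 342 CPM in the MethFix-only members). The homeobox gene *Meis2* had 216 UMIs against 2, a log2 ratio of 6.30 (4.43 to 9.36). *Meis1* (1012 against 39.0 CPM) and the T-box genes *Tbx3* (124 against 8.68 CPM) and *Tbx1* (108 against 8.68 CPM) were called higher too. With *Pax3*, these were 5 of 27 compared transcription factors called higher, against 4.29% of all genes. *Meis1*, *Meis2*, *Tbx1* and *Tbx3* were not called against all other nuclei. Marginal nuclei had 640 CPM of *Meis2*, 751 CPM of *Meis1*, 169 CPM of *Tbx3* and 171 CPM of *Tbx1*.

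Also among the first 10 were *Rab38*, a small GTPase of lysosome-related organelles (289 against 4.34 CPM), *Agbl1* (2557 against 47.7 CPM) and *Tbx3os1*, an antisense transcript beside *Tbx3* (184 against 3 UMIs). The other 4 rested largely on the mixed members. Without these, *Nrp2* fell from 371 to 17.8 CPM, *Dlc1* from 999 to 156 CPM, *Edil3* from 254 to 8.89 CPM and *Pax3*, a pigment cell transcription factor, from 197 to 0 CPM. *Met* and *Dkk3* were called higher against root nuclei only with the mixed members included.

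Calls in further lists are set against the 4.29% of all genes called higher than in root nuclei. *Ptprz1* (1456 against 82.4 CPM) and *Cntn1* (593 against 60.7 CPM) were 2 of the 4 compared genes of the PTPRZ1 and contactin list. The list of voltage-gated calcium channels had 2 of 5, the annexins and their S100 partners 1 of 7, and the claudins and tight junction proteins 1 of 12. *Anxa5* stood at 711 against 60.7 CPM, a log2 ratio of 3.55 (2.77 to 4.44). *Cacna2d1*, an auxiliary calcium channel subunit, stood at 1647 against 86.8 CPM. *Atp2b4*, a plasma membrane calcium pump, stood at 117 against 4.34 CPM, while *Atp2b2*, another of these pumps, was called lower at 6.35 against 134 CPM. *Marveld2*, tricellulin of the tight junction, stood at 88.8 against 21.7 CPM.

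The first 10 genes called lower in spindle than in root nuclei had between 1 and 19 UMIs each in the members. *Ntn4* (netrin 4), *Rnf128*, *Ttll3*, *Nat8l*, *Fxyd6* and *Otoa* had 1 UMI each in the 88 nuclei. *Kcnb2*, a voltage-gated potassium channel, had 2 UMIs against 157, a log2 ratio of -6.75 (-9.80 to -4.87). *Pcdh15* had 2 UMIs against 86, *Rgs6* 8 against 386 and *Map1b*, a microtubule protein of neurons, 19 against 679. Of 6 compared matrix genes of the tectorial membrane and otic membranes 3 were called lower, against 4.63% of all genes, with *Otog* at 19.0 against 252 CPM, *Otogl* at 76.1 against 1097 CPM and *Otoa* at 3.17 against 147 CPM.

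The phosphodiesterase *Pde4b* was the most abundant gene of this group, at 2703 CPM (2525 to 2891) against 18024 CPM in root nuclei, a log2 ratio of -2.74 (-2.85 to -2.63). Between the MethFix-only members and the 3 MethFix-only root nuclei alone the ratio was 0.01, but these 3 nuclei held only 5526 UMIs in all. The median log2 ratio of all genes compared in that contrast was -1.05. *Pde4b* was nevertheless above the 1010 CPM of all other nuclei together. The cation channel *Trpm3* behaved alike, with 1161 CPM in spindle, 6875 CPM in root and 516 CPM in all other nuclei. The carbonic anhydrase *Car12* (95.2 CPM, or 53.3 without the mixed members, against 1761 CPM) and the bicarbonate transporter *Slc4a10* (9.52 against 108 CPM) were the 2 of 10 acid-base genes called, both lower in spindle nuclei, as were 4.63% of all genes.

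Transcription factors called lower in spindle nuclei were *Rorb*, *Nr2f1*, *Gata3* and *Pbx3*, 4 of 27 compared, against 4.63% of all genes called lower. *Nr2f1* had 0 UMIs in all 88 nuclei against 47 in root nuclei, a bound of -4.42 on the log2 scale when the 0 is set to 3 UMIs. *Rorb* stood at 53.9 against 820 CPM, and at 0 UMIs without the mixed members. *Gata3* stood at 114 against 473 CPM, a log2 ratio of -2.05 (-2.64 to -1.49). Without the mixed members its ratio was -1.98, so it was no longer called. *Sall2* had 1 UMI and was too low for a comparison. *Kcnj10* had 181 CPM in the members and 22.2 CPM without the mixed ones, against 126 CPM in root nuclei, so its direction turned with the mixed members.

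**Figure D5:**
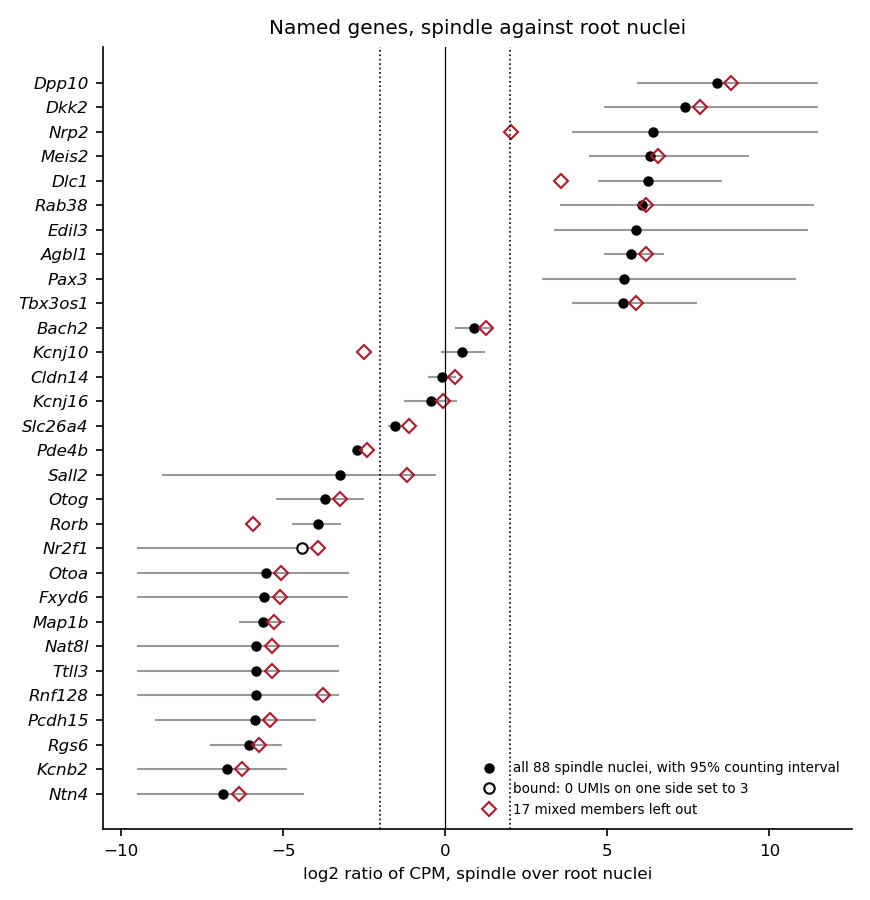
Log2 ratio of CPM, spindle over root nuclei, for the first 10 genes in each direction and the genes the study names. Filled points with bars give all 88 spindle nuclei with 95% counting intervals (bars that run past the plotted range are shortened), the open circle is a bound with 0 UMIs set to 3, and open diamonds leave out the 17 mixed members where a value could be given. *Dpp10* lies at 8.40 and *Ntn4* at the other end, while *Cldn14* and *Kcnj16* lie near 0 and *Nrp2*, *Dlc1* and *Kcnj10* move far once the mixed members are left out.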

How the data were processed

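Single-nucleus libraries from the SV were aligned and counted by the authors with Cell Ranger 3.0.1 against GRCm38, and the submitters' processing notes also name Scanpy 1.4.5. The deposited values are raw UMI counts per gene and barcode, not normalized. The 3323 barcodes found in both matrices were counted once, with their RNAlater counts. Barcodes with fewer than 200 genes, more than 8000 UMIs or more than 10% of UMIs from mitochondrial symbols were left out, and no doublet caller was run. With 1 sample no p-value was computed.

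UMIs were summed over nuclei and divided by the group total (CPM), with exact 95% Poisson intervals for levels, exact binomial (Clopper-Pearson) intervals for shares and conditional binomial intervals for log2 ratios. These cover counting error only. A count of 0 set against a positive one was replaced by 3 UMIs, giving a bound. The 7 genes of the rule were left out of the comparisons. Root nuclei were too few in the MethFix-only set (3), so each set of members was compared with all 58 root nuclei, a change made after the data were seen, as was the separation of mixed members. Other classes were assigned by fixed marker lists. Named were the first 20 genes called higher and the first 10 called lower against all other nuclei, the first 10 in each direction against root nuclei, the proposed markers, 10 genes the study names, and from each gene list the called members and up to 4 of the most abundant. Genes mentioned at 0 or few UMIs, *Camk2d*, *Hpse*, *S100a10* and *Dct* were added from their families or after their values were seen. A few genes that met this rule are not reported here. The members and all lists were chosen with earlier results of these data known.

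Python 3.11.15, numpy 2.4.6, scipy 1.17.1 and pandas 2.3.3 were used, and edgeR 4.0.16 for its TMM factors as an alternative scaling of the counts. In simulated counts for 3964 genes against all other nuclei, 50 of 50 genes raised by 3 on the log2 scale and 50 of 50 lowered by 3 were called, and 0 of 3764 unchanged genes. Against root nuclei (3846 genes) 48 and 50 of 50 were called, and 3 unchanged genes. Of genes raised or lowered by 1, 0 of 50 were called each time. The simulated counts were Poisson draws per group, with no spread between nuclei and no mixed members. They therefore cannot show how often genes that vary between nuclei are called wrongly. Gene positions are those of the GENCODE annotation of GRCm38.p6, matched by gene identifier without its version (48349 of 48816 matched).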

Additional observations from a re-analysis of the deposited data

How the results depend on the processing

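Genes called by these rules depended on which nuclei were taken and on the limit for low values, and each number here counts called genes unless nuclei are named. Thresholds of 3 and 8 rule gene UMIs (104 and 71 nuclei), a mitochondrial limit of 5%, TMM or median-of-ratios scaling, thinning to 1000 UMIs and MethFix counts for shared barcodes (85 nuclei) kept all 4 counts within 1.5 times. A similar count did not mean the same genes. After thinning, 96 of the 108 genes higher and 41 of the 75 lower than in all other nuclei were called again. Against root nuclei 89 of the 165 higher and 123 of the 178 lower were. Requiring all 3 rule genes left 35 nuclei and gave 133 genes lower than in all other nuclei. A threshold of 1.5 rule UMIs per 1000 gave 113 lower, and averaging CPM over nuclei gave 120. Without the limit of 8000 UMIs there were 128 nuclei, with 26 higher and 1 lower than in all other nuclei and 32 higher than in root nuclei. Of the 108 genes higher than in all other nuclei 26 were called again there, and of the 75 lower 0 were. RNAlater counts alone left 49 nuclei and gave 146 lower. MethFix-only barcodes alone left 39 members and 3 root nuclei, and gave 17 higher and 447 lower than in root nuclei, where the median log2 ratio of all compared genes was itself -1.05. Against all other nuclei 99 of the 108 higher genes and 13 of the 75 lower were called again in this setting. Leaving out the nuclei that also met another class's marker rule left 54 and gave 183 higher and 204 lower than in all other nuclei, and leaving out the mixed members, an alternative chosen after seeing the data, gave 176 and 202. With a minimum mean of 20 CPM the counts against all other nuclei were 183 higher and 127 lower and against root nuclei 308 and 273. With 100 CPM the count lower than in all other nuclei was 44 and those against root nuclei were 94 and 110. With no minimum the 4 counts were 305, 143, 331 and 295. The cause of these shifts was not tested beyond the nuclei or genes each setting adds or removes.

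Of 1348 log2 ratios of named genes against all other nuclei under these settings, 351 moved past their counting interval and 68 changed sign, none of them of a called gene. *Col11a1*, which was not called, went from 1.81 to -2.81 with MethFix-only barcodes alone. Against root nuclei 208 of 1228 moved past that interval with the same sign or without a call, 85 changed sign, and 5 of these were of called genes. With MethFix-only barcodes alone *Pde4b* came to 0.011, *Met* to -0.82 and *Edil3* to -0.67. *Met* came to -0.00054 without nuclei of a second class and to -0.12 without the mixed members. No paired analysis was possible because there was 1 library per preservation method and the libraries shared barcodes. Depth limits genes below 50 CPM most, since 3 UMIs in the members amount to 9.52 CPM.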
